A study of Mus musculus with 24 samples.

Results

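Reads from 9 genes that mark the B lymphocyte lineage were followed in RNA sequencing libraries of sorted hematopoietic stem cells of mice (HSCs), which renew themselves in the bone marrow and supply every blood lineage. The genes were Cd79a, Cd79b, Blnk, Pax5, Ebf1, Vpreb1, Vpreb3, Igll1 and Ms4a1. They were chosen by name, 9 of the 55487 genes counted, and each was looked up by its Ensembl identifier in all 24 libraries. The study concerns PUS10, an enzyme that converts uridine in RNA to pseudouridine, and holds 3 experiments. PUS10-OE HSCs (overexpression, n = 3) were compared with Vector HSCs (n = 3). miR139-KD HSCs (knockdown of the microRNA miR-139, n = 6) were compared with NTC HSCs (non-target control, n = 6). The third experiment set 3 libraries labelled Pus10-KO against 3 libraries labelled Pus10-WT. The labels used here name 1 genotype for each library and give no strain, age, sex, sorting gate, delivery vector or count of animals. Whether replicate libraries stem from different mice is not stated, so the p-values speak only of the spread from library to library, part of which may be technical.

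As background, B cells form in the bone marrow from lymphoid progenitors. Ebf1 and Pax5 are transcription factors that set and hold the B-cell fate. Igll1 (lambda5) and Vpreb1 encode the surrogate light chain, which pairs with the immunoglobulin heavy chain in the pre-B-cell receptor before a true light chain has been rearranged. Vpreb3 encodes a related protein of precursor B cells. Cd79a and Cd79b encode the signalling pair (Ig-alpha and Ig-beta) that both the pre-B-cell receptor and the later B-cell receptor need. Blnk is the adaptor that links the receptor to downstream enzymes. Ms4a1 encodes CD20, a surface protein of more mature B cells. Immunoglobulin light-chain transcripts mark the later stages, from the small pre-B cell through the B cell to the plasma cell, which is why each member was also set beside the light-chain reads of its library.

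The members lie on 6 chromosomes (GRCm38, whole gene from first to last exon base). Cd79a (ENSMUSG00000003379.7) lies at chr7:24897381-24902197 on the plus strand and Cd79b (ENSMUSG00000040592.11) at chr11:106311341-106314762 on the minus strand. Blnk (ENSMUSG00000061132.13) lies at chr19:40928927-40994535, minus, and Ms4a1 (ENSMUSG00000024673.9) at chr19:11249675-11266241, minus. Pax5 (ENSMUSG00000014030.15) lies at chr4:44524757-44710487, minus, and Ebf1 (ENSMUSG00000057098.14) at chr11:44617317-45008091, plus. The surrogate light-chain genes Vpreb1 (ENSMUSG00000059305.12, chr16:16868403-16870843) and Igll1 (ENSMUSG00000075370.12, chr16:16860671-16863985) are neighbours on the minus strand. Vpreb3 (ENSMUSG00000000903.3) lies at chr10:75943057-75949657, plus. All 9 are protein-coding genes.

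The promoters of 4 members are shown because they share a motif bound by E proteins such as E2A, factors that act with Ebf1 and Pax5 in early B cells. RefSeq promoter sequences (GRCm38.p6, from 250 bases before to 50 bases after the transcription start) were found for 7 of the 9 members and for 8 promoters. Cd79b and Ms4a1 are named only. The capitals mark the E-box CAGGTG, or its reverse complement CACCTG, and in Igll1 also CCCNNGGG, the core letters of the EBF1 motif.
Cd79a (chr7:24897247-24897546, plus strand): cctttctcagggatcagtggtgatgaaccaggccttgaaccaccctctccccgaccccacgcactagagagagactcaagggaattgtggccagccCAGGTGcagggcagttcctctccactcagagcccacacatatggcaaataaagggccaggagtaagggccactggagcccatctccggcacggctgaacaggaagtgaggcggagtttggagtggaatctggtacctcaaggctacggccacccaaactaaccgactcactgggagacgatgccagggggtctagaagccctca
Blnk (chr19:40994172-40994471, minus strand): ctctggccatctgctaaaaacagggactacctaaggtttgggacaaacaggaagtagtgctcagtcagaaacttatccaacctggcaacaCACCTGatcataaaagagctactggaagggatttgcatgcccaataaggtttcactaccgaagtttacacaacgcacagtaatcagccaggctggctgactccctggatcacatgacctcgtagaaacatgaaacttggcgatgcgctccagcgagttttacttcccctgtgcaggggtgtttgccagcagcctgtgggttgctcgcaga
Vpreb1 (chr16:16869206-16869505, minus strand): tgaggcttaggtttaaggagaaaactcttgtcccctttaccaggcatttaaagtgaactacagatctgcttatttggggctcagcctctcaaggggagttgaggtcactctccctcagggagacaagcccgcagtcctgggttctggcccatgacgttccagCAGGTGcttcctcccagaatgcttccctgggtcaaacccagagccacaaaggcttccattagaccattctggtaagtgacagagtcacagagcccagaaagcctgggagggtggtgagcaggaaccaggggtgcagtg
Igll1 (chr16:16863936-16864235, minus strand): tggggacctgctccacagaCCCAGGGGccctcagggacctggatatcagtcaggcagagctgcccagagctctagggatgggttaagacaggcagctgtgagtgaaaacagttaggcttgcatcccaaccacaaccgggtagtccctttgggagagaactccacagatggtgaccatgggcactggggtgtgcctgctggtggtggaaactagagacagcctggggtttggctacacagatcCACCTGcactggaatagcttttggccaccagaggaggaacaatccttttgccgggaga

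CAGGTG was present in 4 of the 7 members with a promoter, and in 4 of their 8 promoters. It was present in 20.2% of the 32851 promoters of that length searched, which did not cover every chromosome. The CAGGTG match began 154 bases before the start in Cd79a, 160 in Blnk, 88 in Vpreb1 and 8 in Igll1. CCCNNGGG was present in 1 member, Igll1, 231 bases before the start, against 13.7% of promoters. GGAAGT, an ETS-type motif, was in 4 members (Blnk, Cd79a, Ebf1 and Vpreb3) against 23.8%, and TGGGAA, an IKAROS-type motif, was in 1 (Ebf1) against 25.6%. All motifs were searched on both strands. The matches are descriptions of the letters and say nothing of binding.

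The libraries held between 9.87 M and 47.3 M (mega) reads on genes, and 15575 to 17879 genes were detected in each. Levels below are counts per 1 M reads on genes (CPM), scaled by library size alone. Floors cover counting error only, since the reads carry no molecular identifiers. Intervals of fold changes come from the edgeR fit and include the spread from library to library. They use the normal quantile and so are too narrow at 3 or 6 libraries per group. All 14 HSC markers examined, among them Kit, Procr, Slamf1 and Mecom, were present in every group. Pus10 averaged 253 ± 19.6 CPM in PUS10-OE and 77.2 ± 20.3 CPM in Vector HSCs (SD, n = 3 each). It averaged 32.9 ± 7.61 CPM in miR139-KD and 35.6 ± 6.45 CPM in NTC HSCs (SD, n = 6 each). In the libraries labelled Pus10-KO it averaged 35.9 ± 1.23 CPM, against 27.6 ± 7.46 CPM in Pus10-WT (SD, n = 3 each), so the Pus10 count does not bear out the Pus10-KO label, and each direction given for that comparison rests on labels alone. Where in the gene the knockout lies is not given in the labels.

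Across the 6 groups the 9 genes fell into 3 patterns. Cd79b was present in all 24 libraries. Cd79a, Blnk, Pax5, Ebf1, Vpreb1, Vpreb3 and Igll1 reached their highest levels in NTC HSCs, and Pax5 and Igll1 had no read outside the miR139-KD and NTC libraries. Ms4a1 was low wherever it was present.

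**Figure D1:**
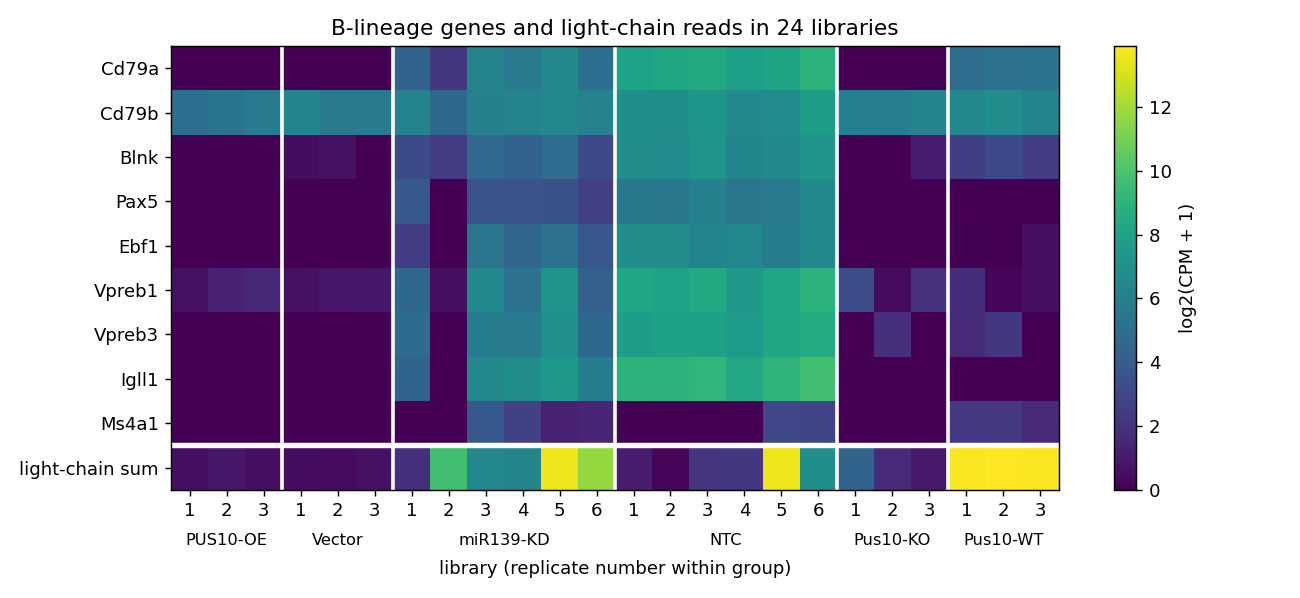
Level of each of the 9 B-lineage genes and of the summed immunoglobulin light chains (rows) in each of the 24 libraries (columns, by group and replicate number), as log2(CPM + 1) in colour. The NTC libraries are bright for 8 genes whatever their light-chain level, the Pus10-WT libraries are bright for light chain but dark for Pax5 and Igll1, and Cd79b is coloured in every library.

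On a scale of CPM per kilobase of exon, on which genes can be set beside each other, the level in NTC HSCs ran from Vpreb3 (314 ± 80.3) through Vpreb1 (263 ± 92.5), Igll1 (250.03 ± 73.1) and Cd79a (222 ± 65.1) to Cd79b (94.1 ± 30.0). Blnk followed at 19.7 ± 4.79, then Ebf1 at 9.48 ± 2.34, Pax5 at 6.72 ± 2.19 and Ms4a1 at 0.354 ± 0.549 CPM per kilobase (SD, n = 6 each). Each of the first 4 genes lay within 1 SD of its neighbour in that order, whereas Cd79b lay below Cd79a by more than either SD. In miR139-KD HSCs Vpreb3 stood at 56.9 ± 51.9, Cd79b at 46.0 ± 15.0, Vpreb1 at 45.3 ± 46.6, Igll1 at 36.5 ± 31.7 and Cd79a at 31.4 ± 22.9 CPM per kilobase (SD, n = 6 each), and none of these neighbours differed beyond their spread. In Pus10-WT HSCs Cd79b (65.0 ± 13.0) exceeded Cd79a (24.25 ± 2.96 CPM per kilobase, SD, n = 3 each).

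The miR139-KD comparison asks how lowering miR-139 changes the HSC transcriptome. Cd79a, Cd79b, Blnk and Pax5 fell in miR139-KD HSCs, 4 of the 9 members, all of which were tested. Over all 13295 genes tested in this comparison 1.31% were called lower, 1.41% higher and 2.72% in either direction, at an edgeR quasi-likelihood adjusted p under 0.05. For 8 of the 9 members every miR139-KD library lay below every NTC library, against 1.69% of all genes tested (1.66% were separate and higher, 3.35% separate in either direction). The median log2 fold change was -2.53 over the 9 members and 0.0171 over all genes tested. In sorted populations such as these, fewer cells of a type and less RNA per cell cannot be told apart.

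Among the receptor genes, Cd79a had a lowest, median and highest level of 3.68, 42.1 and 92.5 CPM in the 6 miR139-KD libraries, against 231, 298 and 501 CPM in the 6 NTC libraries. The groups did not overlap, and replicate 2 of miR139-KD was the lowest library. Cd79a averaged 45.7 ± 33.3 CPM in miR139-KD and 324 ± 94.9 CPM in NTC HSCs (SD, n = 6 each), 7.08-fold lower (log2 fold change -2.82, SE 0.526, adjusted p = 0.0112 by edgeR). With no filter on low counts its adjusted p was 0.0532. Its partner Cd79b had a lowest, median and highest level of 24.8, 71.6 and 87.4 CPM in miR139-KD, against 94.2, 121 and 211 CPM in NTC. Again the groups did not overlap, but the gap between them was narrow. Cd79b was 2.06-fold lower (65.8 ± 21.4 against 135 ± 42.9 CPM, SD, n = 6 each, log2 fold change -1.04, SE 0.261, adjusted p = 0.0479 by edgeR). That adjusted p lay close to the threshold, and the call was lost in 14 of 22 alternative settings, in which it ranged up to 0.131.

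Of all members Igll1, from the surrogate light chain, had the largest difference in mean CPM. Igll1 had a lowest, median and highest level of 0, 73.6 and 187 CPM in miR139-KD, against 338, 514 and 821 CPM in NTC. Every miR139-KD library was below every NTC library, and the library at 0 was again replicate 2. Its log2 fold change was -2.78 (SE 0.890, 95% interval -4.52 to -1.03), with an edgeR adjusted p of 0.143. Vpreb1, its partner in the surrogate light chain, had a lowest, median and highest level of 0.480, 30.8 and 144 CPM in miR139-KD, against 174, 297 and 505 CPM in NTC. The groups were separate, with a log2 fold change of -2.53 (SE 0.809, adjusted p = 0.136 by edgeR). Vpreb3 had a lowest, median and highest level of 0, 41.4 and 129 CPM in miR139-KD, against 209, 246 and 384 CPM in NTC, and the groups were again separate (log2 fold change -2.47, SE 0.781, adjusted p = 0.131 by edgeR). With every library in the edgeR fit, Igll1, Vpreb1 and Vpreb3 missed the threshold, although Vpreb1 passed with DESeq2 (adjusted p = 0.0362) and limma-voom (0.0336). Without replicate 2 of miR139-KD each of the 3 genes passed in edgeR: the log2 fold change was -2.51 for Igll1 (edgeR adjusted p = 0.00946), -2.26 for Vpreb1 (0.0351) and -2.20 for Vpreb3 (0.00946).

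Vpreb1 shares 108 exon bases with Top3b, a topoisomerase gene on the opposite strand, and the libraries do not mark strand, so reads from that stretch cannot be told apart. Top3b stood at 59.6 to 90.9 CPM in miR139-KD and 56.2 to 96.7 CPM in NTC HSCs. Vpreb2, a near-identical copy of Vpreb1, stood at 0 to 18.8 CPM in miR139-KD and 21.8 to 53.4 CPM in NTC HSCs, and how reads were split between the copies is uncertain.

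The adaptor Blnk had a lowest, median and highest level of 4.32, 13.8 and 32.0 CPM in miR139-KD, against 81.6, 111 and 154 CPM in NTC. The groups were separate. Blnk was 7.26-fold lower, at 16.3 ± 11.5 against 118 ± 28.7 CPM (SD, n = 6 each, log2 fold change -2.86, SE 0.436, adjusted p = 0.00269 by edgeR), the lowest adjusted p among the members.

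Of the transcription factors, Pax5 had a lowest, median and highest level of 0, 10.2 and 13.1 CPM in miR139-KD, against 45.3, 51.7 and 95.7 CPM in NTC. Pax5 was 7.21-fold lower (log2 fold change -2.85, SE 0.622, adjusted p = 0.0265 by edgeR), with separate groups. Without NTC replicate 3, NTC replicate 6 or miR139-KD replicate 6 its adjusted p was 0.0587, 0.0502 and 0.0581. Ebf1 had a lowest, median and highest level of 0, 18.1 and 43.4 CPM in miR139-KD, against 59.0, 91.6 and 118 CPM in NTC. Its groups did not overlap either, with a log2 fold change of -2.20 (SE 0.710, adjusted p = 0.123 by edgeR), and without replicate 2 of miR139-KD the log2 fold change was -1.94 (adjusted p = 0.0416). An unannotated transcript, 5730488B01Rik, shares 636 exon bases with Pax5 on the opposite strand and reached at most 0.399 CPM in miR139-KD and 8.23 CPM in NTC HSCs. Gm12158, antisense to Ebf1 with no shared exon base, stood at 0 to 11.2 CPM in miR139-KD and 5.56 to 32.0 CPM in NTC HSCs.

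Ms4a1 showed no such separation. It had 0, 0, 13.0, 5.52, 1.46 and 1.80 CPM in miR139-KD replicates 1 to 6, against 0, 0, 0, 0, 6.75 and 6.40 CPM in NTC replicates 1 to 6. The groups overlapped, and the log2 fold change was 0.74 (SE 1.68, adjusted p = 0.894 by edgeR).

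**Figure D2:**
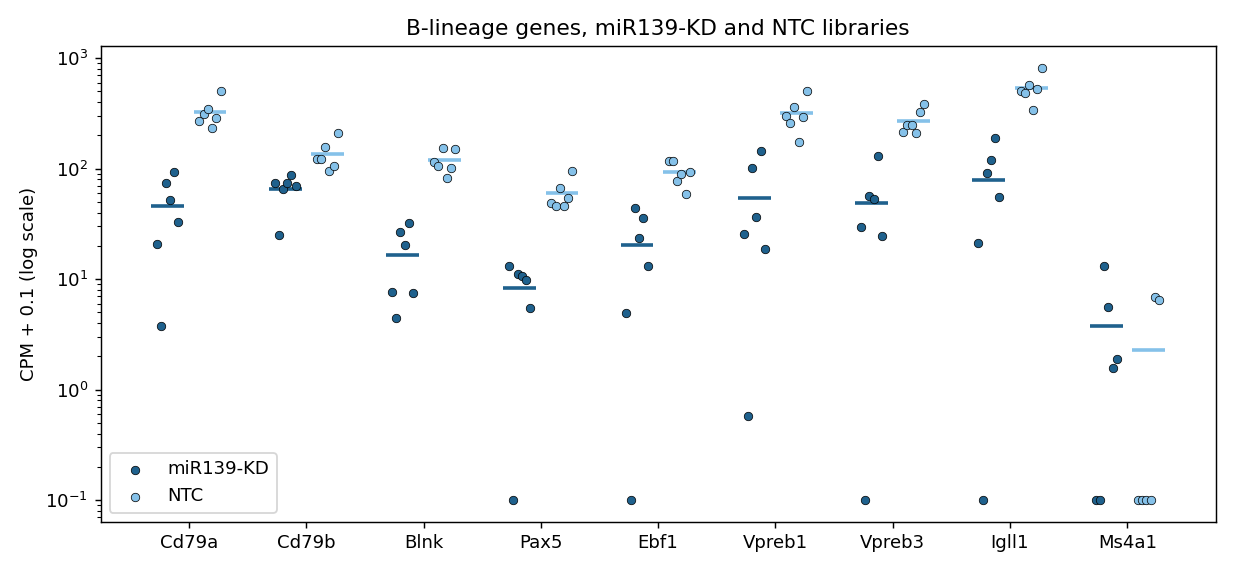
Level of each member in each miR139-KD (dark) and NTC (light) library, in CPM + 0.1 on a log axis, with horizontal lines at the group means. For 8 genes every miR139-KD point lies below every NTC point, and miR139-KD replicate 2 sits at 0 for Pax5, Ebf1, Vpreb3 and Igll1.

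The count of members called in miR139-KD depended on single libraries. Without replicate 2 of miR139-KD, 8 members were called, and without miR139-KD replicate 6, NTC replicate 3 or NTC replicate 6, 2 were. Replicate 2 had the lowest level of 8 members among the 6 miR139-KD libraries, and its light-chain sum was 819.9 CPM. The spread among libraries was wider in miR139-KD than in NTC for Cd79a, Blnk, Pax5, Ebf1, Vpreb1, Vpreb3 and Igll1. The coefficient of variation was 72.9% in miR139-KD and 29.3% in NTC for Cd79a. In the same order it was 70.7% and 24.3% for Blnk, 86.8% and 29.2% for Igll1, and 57.9% and 32.6% for Pax5. It was 86.1% and 24.7% for Ebf1, 103% and 35.2% for Vpreb1, and 91.2% and 25.6% for Vpreb3. For Cd79b it was 32.5% in miR139-KD and 31.9% in NTC, and for Ms4a1 138% in miR139-KD and 155% in NTC.

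Ratios to Cd79a within a library were compared as a description without a test. Cd79b had a lowest, median and highest ratio to Cd79a of 0.890, 1.78 and 6.74 in miR139-KD libraries, against 0.368, 0.414 and 0.453 in NTC libraries, with no overlap. Igll1 had a ratio of 0, 1.47 and 2.30 in miR139-KD, against 1.46, 1.65 and 1.87 in NTC, and the ratios of Vpreb1, Vpreb3, Blnk, Pax5 and Ebf1 overlapped between the groups as well. In Pus10-WT libraries the Cd79b ratio was 1.95, 2.94 and 3.12, and Pax5 and Igll1 were at 0.

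**Figure D3:**
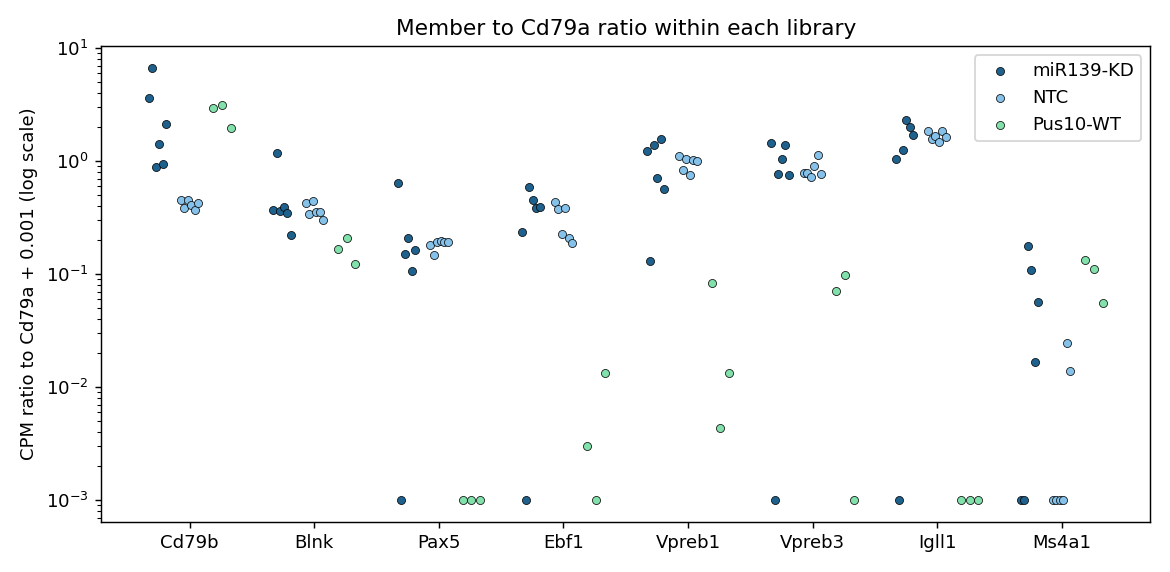
Ratio of each member's CPM to the CPM of Cd79a in the same library, plus 0.001, on a log axis, for miR139-KD, NTC and Pus10-WT libraries. The Cd79b ratios of miR139-KD and Pus10-WT libraries lie above the NTC ratios. For Blnk, Pax5, Ebf1, Vpreb1, Vpreb3 and Igll1 the miR139-KD points spread more widely and reach both below and above the NTC points.

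Other genes of the B-cell pathway were read from lists. Of 19 tested genes for B-cell receptor signalling and co-receptors, 0 were called in miR139-KD by edgeR (5 had an unadjusted p under 0.05, DESeq2 called 2 and limma-voom 1), with a median log2 fold change of -0.476. Cd72, a co-receptor that dampens B-cell receptor signals, averaged 22.9 ± 5.40 CPM in miR139-KD and 45.9 ± 16.7 CPM in NTC HSCs (SD, n = 6 each, edgeR adjusted p = 0.0579). Of 19 tested genes for B-lineage specification and recombination, 2 fell and 0 rose, with a median of -0.665. Dntt, the polymerase that adds bases at immunoglobulin joints, averaged 95.4 ± 51.7 CPM in miR139-KD and 599 ± 174 CPM in NTC HSCs (log2 fold change -2.66, SE 0.539, adjusted p = 0.0218 by edgeR). Irf8, a transcription factor of B-cell and myeloid differentiation, averaged 29.6 ± 15.3 CPM in miR139-KD and 84.7 ± 34.3 CPM in NTC HSCs (log2 fold change -1.53, edgeR adjusted p = 0.0442).

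Markers of other cells were read beside these results. Of 13 tested genes of lymphoid-primed progenitors, 6 fell in miR139-KD and 0 rose, with no gene at 0 throughout either group. The list summed to 444 to 5803 CPM (median 678 CPM) in miR139-KD libraries and 1480 to 7035 CPM (median 2126 CPM) in NTC libraries. This list and the mature B-cell list below both hold Ighm, the immunoglobulin mu heavy chain. Its part in the sums was not separated, so their upper ends are no measure of progenitor genes. Flt3, the cytokine receptor of these progenitors, averaged 40.8 ± 10.9 CPM in miR139-KD and 141 ± 30.7 CPM in NTC HSCs (log2 fold change -1.80, SE 0.179, adjusted p = 0.000352 by edgeR). Satb1, a chromatin organiser of lymphoid cells, fell as well (log2 fold change -1.72, edgeR adjusted p = 0.000737). Of 8 tested mature B-cell markers, 0 were called by edgeR (1 had an unadjusted p under 0.05, DESeq2 called 0 and limma-voom 1), and the list of 14 summed to 734 to 5974 CPM in miR139-KD and 820.1 to 6964 CPM in NTC HSCs, with Ccr6 at 0 throughout miR139-KD. Of 8 tested plasma cell markers, 0 were called by edgeR (2 had an unadjusted p under 0.05, DESeq2 called 1 and limma-voom 0), with sums of 281 to 680.4 CPM in miR139-KD and 303 to 1493 CPM in NTC HSCs. Plasmacytoid dendritic cell markers summed to 322 to 456 CPM in miR139-KD and 402 to 664 CPM in NTC HSCs, 1 of 9 tested (Irf8) fell, and Siglech, Klk1 and Cd300c were at 0 throughout miR139-KD. T and NK cell markers summed to 198 to 403 CPM in miR139-KD and 359 to 566 CPM in NTC HSCs. There 1 of 3 tested fell, Lck (log2 fold change -3.12, edgeR adjusted p = 0.00226), while Cd3e, Cd3g, Cd8a and Trac were at 0 in both groups. The part of these cells in the members' result was not tested.

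Light-chain reads varied widely within both groups. The sum over 178 light-chain genes was 2.84, 819.9, 89.3, 80.9, 12349 and 3363 CPM in miR139-KD replicates 1 to 6, against 1.19, 0.139, 3.42, 3.87, 12090 and 119 CPM in NTC replicates 1 to 6. The medians were 455 CPM in miR139-KD and 3.64 CPM in NTC, and the ranges overlapped. On the log2(CPM + 1) scale the means were 8.30 in miR139-KD and 4.37 in NTC, a difference of 3.93 (exact 2-sided permutation test, p = 0.18, n = 6 each). Without NTC replicate 5, the NTC library with the most light chain, the difference was 5.77 (exact permutation p = 0.0433). With any other single library left out, the exact permutation p lay between 0.0866 and 0.32. With the light-chain level as a covariate, Cd79a and Blnk were still called and Cd79b and Pax5 were not (edgeR adjusted p = 0.107 and 0.0537). Without the 5 libraries at 100 CPM or more of light chain, 3 members were called by edgeR: Cd79a (log2 fold change -2.58, adjusted p = 0.048), Pax5 (-2.18, 0.0286) and Vpreb3 (-2.31, 0.0236). In that setting Blnk (-2.67, adjusted p = 0.052) and Cd79b (-0.81, 0.131) lost their edgeR calls.

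The Pus10-KO comparison asks how loss of Pus10 changes HSCs. Cd79a fell in the libraries labelled Pus10-KO, the only member called of the 6 that were tested. Over all 14657 genes tested 0.0478% were called lower, 0.0136% higher and 0.0614% in either direction by edgeR. Pax5 and Igll1 had no read in either group, and Ebf1 was too low to be tested. Every library labelled Pus10-KO lay below every Pus10-WT library for 4 members (Cd79a, Cd79b, Blnk and Ms4a1), against 4.94% of all genes tested (8.78% were separate and higher, 13.7% in either direction). Light-chain and plasma cell transcripts moved with these members, as given below.

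Cd79a had 0 reads in all 3 libraries labelled Pus10-KO, against 30.6, 36.2 and 39.1 CPM in Pus10-WT, 1666 reads in all. The groups were fully apart. Set against a floor of 3 reads over the group (0.0672 CPM), Cd79a was at least 525-fold lower in the libraries labelled Pus10-KO (edgeR adjusted p = 0.0238). That call was lost with limma-voom (adjusted p = 0.278), and without Pus10-WT replicate 1, 2 or 3 (0.142, 0.123 and 0.181) or Pus10-KO replicate 2 or 3 (0.0691 and 0.0569).

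Cd79b, in contrast, was present in both groups, at 64.4, 61.2 and 75.6 CPM in the libraries labelled Pus10-KO, against 90.0, 113 and 76.2 CPM in Pus10-WT. The highest of the first lay just below the lowest of the second. Its log2 fold change was -0.54 (SE 0.201, 95% interval -0.934 to -0.145, edgeR adjusted p = 0.650). Blnk had 0, 0 and 1.15 CPM in the libraries labelled Pus10-KO, against 5.03, 7.49 and 4.77 CPM in Pus10-WT (log2 fold change -3.90, SE 1.77, adjusted p = 0.750 by edgeR). Ms4a1 had 0 reads in the 3 libraries labelled Pus10-KO, against 4.06, 3.96 and 2.14 CPM in Pus10-WT, at least 50.4-fold lower (edgeR adjusted p = 0.455, DESeq2 adjusted p = 0.00462). Blnk and Ms4a1 were low but never absent from a Pus10-WT library.

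The early genes showed no such pattern. Vpreb1 had 8.85, 0.345 and 2.91 CPM in the libraries labelled Pus10-KO, against 2.55, 0.122 and 0.484 CPM in Pus10-WT (edgeR adjusted p = 0.938). Vpreb3 had 0, 2.62 and 0 CPM in the libraries labelled Pus10-KO, against 2.12, 3.53 and 0 CPM in Pus10-WT (edgeR adjusted p = 0.999). For both genes the groups overlapped. Ebf1 had 0 reads in the libraries labelled Pus10-KO and 1, 0 and 7 reads in Pus10-WT replicates 1, 2 and 3, so its groups overlapped too. Set against the floor of 3 reads over the group, these 8 reads gave a bound of 2.70-fold lower, without a test. That bound leaves out the counting error of the 8 reads.

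The Pus10-WT libraries carried large amounts of light chain. Its sum was 21.5, 2.21 and 0.932 CPM in the libraries labelled Pus10-KO, against 14085, 15509 and 14059 CPM in Pus10-WT. The groups were far apart, with a difference in mean log2(CPM + 1) of -11.5, and the exact 2-sided permutation p of 0.1 (n = 3 each) is the smallest that 3 against 3 can give. Ighm, the immunoglobulin mu heavy chain, averaged 35.5 ± 9.44 CPM in the libraries labelled Pus10-KO and 10092 ± 4536 CPM in Pus10-WT (log2 fold change -8.22, edgeR adjusted p = 0.00293). Jchain, the joining chain of secreted immunoglobulin, averaged 1.64 ± 1.86 CPM in the libraries labelled Pus10-KO and 2092 ± 1565 CPM in Pus10-WT (SD, n = 3 each, log2 fold change -10.3, edgeR adjusted p = 0.0238). Of 11 tested plasma cell markers 1 (Jchain) fell and all 11 had a negative log2 fold change, and the list summed to 463 to 559 CPM in the libraries labelled Pus10-KO and 1811 to 4817 CPM in Pus10-WT. Tnfrsf17 and Mzb1 were at 0 throughout the libraries labelled Pus10-KO. Of 9 tested mature B-cell markers 1 (Ighm) fell, and Ighd, Ccr6, Fcrla and Fcmr were at 0 in the libraries labelled Pus10-KO. The list summed to 1284 to 1628 CPM in the libraries labelled Pus10-KO and 6391 to 15550 CPM in Pus10-WT. Most of the Pus10-WT sum was Ighm alone, at 5249 to 14242 CPM. Ighm stood at 26.5 to 45.4 CPM in the libraries labelled Pus10-KO. With the light-chain level as a covariate Cd79a's adjusted p was 0.993 and its SE 32.7, because the covariate separates the groups almost completely. The part of B-lineage or plasma cell RNA in these results was not tested.

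Of 17 tested receptor signalling and co-receptor genes, 0 were called in this comparison by edgeR (1 had an unadjusted p under 0.05, DESeq2 and limma-voom called 0), with a median log2 fold change of -0.0229. Syk, the kinase that docks on Cd79a and Cd79b, averaged 46.8 ± 6.95 CPM in the libraries labelled Pus10-KO and 29.8 ± 1.93 CPM in Pus10-WT (SD, n = 3 each, edgeR adjusted p = 0.650). Of 15 tested specification and recombination genes, 0 were called by edgeR (2 had an unadjusted p under 0.05, DESeq2 called 1 and limma-voom 0), with a median of 0.176. Ikzf3, the Aiolos factor of later B cells, had 0 reads in the libraries labelled Pus10-KO and stood at 2.35 to 23.9 CPM in Pus10-WT (edgeR adjusted p = 0.350).

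**Figure D4:**
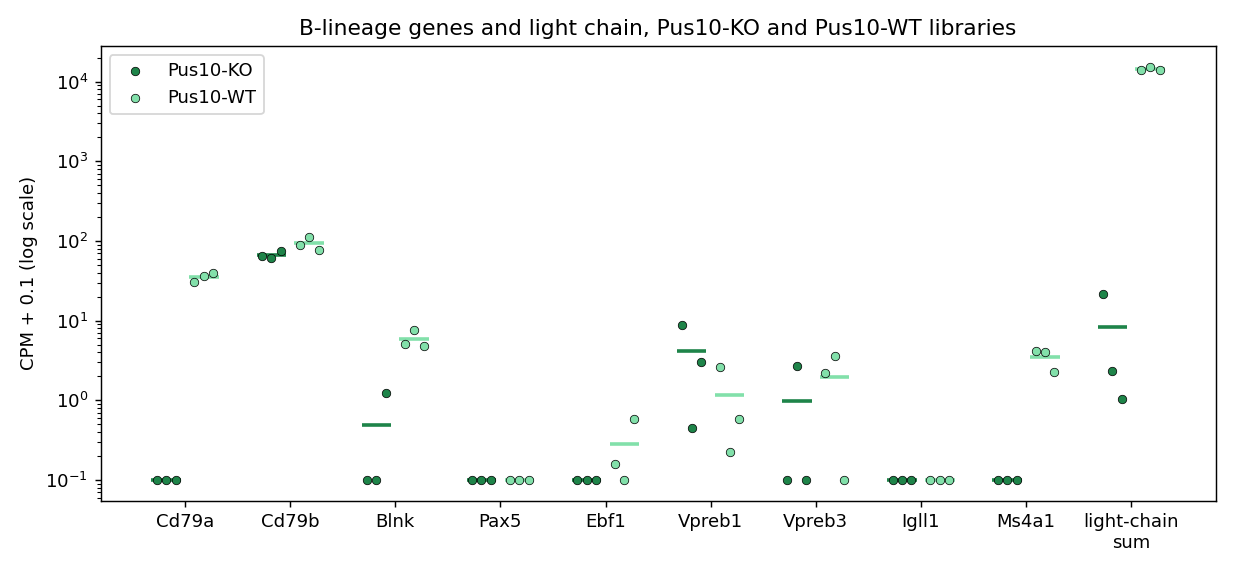
Level of each member and of the summed light chains in each library labelled Pus10-KO (dark) and Pus10-WT (light), in CPM + 0.1 on a log axis, with lines at the group means. Light chain, Cd79a, Blnk and Ms4a1 are separate between the groups, Cd79b is present in both, and Pax5 and Igll1 are at 0 in all 6 libraries.

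The PUS10-OE comparison asks what excess PUS10 does to HSCs. Here 7 of the 9 members had no read in any PUS10-OE library, and 2 were tested, with 0 called by edgeR. Over all 14834 genes tested 0% were called (1215 had an unadjusted p under 0.05, DESeq2 called 177 and limma-voom 0). Cd79a, Pax5, Ebf1, Vpreb3, Igll1 and Ms4a1 had 0 reads in all 6 libraries, which at a floor of 3 reads over a group allows at most 0.0240 CPM in PUS10-OE and 0.0253 CPM in Vector HSCs.

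Cd79b had 33.4, 41.3 and 54.7 CPM in PUS10-OE, against 76.4, 52.5 and 54.8 CPM in Vector. The groups overlapped, as for every member here. Over all genes tested, 8.88% were separate and lower in PUS10-OE, 6.11% separate and higher and 15% in either direction. The log2 fold change of Cd79b was -0.46 (SE 0.214, 95% interval -0.877 to -0.0387, unadjusted p = 0.0653, edgeR adjusted p = 0.658). Vpreb1 had 0.517, 1.45 and 1.88 CPM in PUS10-OE, against 0.536, 0.804 and 0.848 CPM in Vector (log2 fold change 0.85, SE 0.792, adjusted p = 0.892 by edgeR), with overlap. Blnk had 0 reads in PUS10-OE, against 0.375, 0.529 and 0 CPM in Vector. Its 39 Vector reads came from 2 of the 3 libraries, and against the floor it was at least 12.55-fold lower in PUS10-OE, without a test. The light-chain sum was 0.493, 0.821 and 0.415 CPM in PUS10-OE, against 0.402, 0.317 and 0.555 CPM in Vector, a difference in mean log2(CPM + 1) of 0.14 (exact 2-sided permutation test, p = 0.4, n = 3 each, smallest possible 0.1).

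Of 16 tested receptor signalling genes 0 were called in PUS10-OE by edgeR (3 had an unadjusted p under 0.05, DESeq2 and limma-voom called 0), and 13 had a negative log2 fold change. Fcgr2b, the inhibitory Fc receptor of B cells, averaged 6.24 ± 2.08 CPM in PUS10-OE and 12.2 ± 1.77 CPM in Vector HSCs (SD, n = 3 each, edgeR adjusted p = 0.499). Of 12 tested specification genes 0 were called by edgeR (2 had an unadjusted p under 0.05, DESeq2 called 2 and limma-voom 0). Dntt had 0 reads in PUS10-OE and 2.74 ± 2.58 CPM in Vector HSCs (edgeR adjusted p = 0.338). Of 9 tested lymphoid-primed progenitor genes 0 were called by edgeR (4 had an unadjusted p under 0.05, DESeq2 called 2 and limma-voom 0), and Flt3 averaged 31.4 ± 15.7 CPM in PUS10-OE and 79.8 ± 6.34 CPM in Vector HSCs (edgeR adjusted p = 0.393).

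The libraries were then read for which members are seen without light-chain reads. A member counted as seen in a library at 1 CPM or more, and a library as without light chain where the sum of the 178 light-chain genes was under 1 CPM. That left 8 libraries: 3 of PUS10-OE, 3 of Vector, NTC replicate 2 and Pus10-KO replicate 3. In them 8 of the 9 members were seen at least once, all but Ms4a1.

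NTC replicate 2 carried the clearest case. With only 2 light-chain reads (0.139 CPM) it had 312 CPM of Cd79a, 121 of Cd79b, 106 of Blnk, 46.0 of Pax5, 118 of Ebf1, 259.7 of Vpreb1, 246 of Vpreb3 and 487 of Igll1. These levels lay within the range of the other 5 NTC libraries for each of these genes except Ebf1, for which it was the highest of the 6. NTC replicate 5, with 12090 CPM of light chain, had 284 CPM of Cd79a, 105 of Cd79b, 102 of Blnk, 54.5 of Pax5, 59.0 of Ebf1, 293 of Vpreb1, 322 of Vpreb3 and 521 of Igll1. All 8 genes were thus seen at the lowest and the highest light-chain level among NTC libraries, and Ebf1 was highest of the 6 in the first and lowest in the second.

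The reverse case was present too. miR139-KD replicate 2 had 819.9 CPM of light chain and only 3 members seen: Cd79a at 3.68, Cd79b at 24.8 and Blnk at 4.32 CPM. The Pus10-WT libraries had 14059 to 15509 CPM of light chain and 6, 5 and 4 members seen in replicates 1, 2 and 3, with Cd79a, Cd79b, Blnk and Ms4a1 in all of them and Pax5 and Igll1 at 0. Igll1 was at 0 in all 4 of these libraries, whereas Vpreb1 had 6 reads in miR139-KD replicate 2 and 42, 2 and 7 reads in Pus10-WT replicates 1, 2 and 3.

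By gene, Cd79b was seen in 8 of the 8 libraries without light chain and in 16 of the 16 with it. Cd79a, Pax5, Ebf1, Vpreb3 and Igll1 were each seen in 1 of 8 without it, always NTC replicate 2, and in 14, 10, 10, 13 and 10 of 16 with it. Blnk was seen in 2 of 8 and 14 of 16, and Vpreb1 in 4 of 8 and 12 of 16. Ms4a1 was seen in 0 of 8 and 9 of 16. Each of the 9 libraries with Ms4a1 had at least 80.9 CPM of light chain. miR139-KD replicate 2 was the only library above that level without it. These counts mix the groups, whose members differ, and are a description without a test. They also depend on the cut of 1 CPM. NTC replicates 1, 3 and 4 and miR139-KD replicate 1 counted as with light chain at 1.19, 3.42, 3.87 and 2.84 CPM. Each of these libraries had 8 members seen, all but Ms4a1. NTC replicate 1 held 14 light-chain reads, against 15 to 34 in the deeper PUS10-OE and Vector libraries, which counted as without it.

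**Figure D5:**
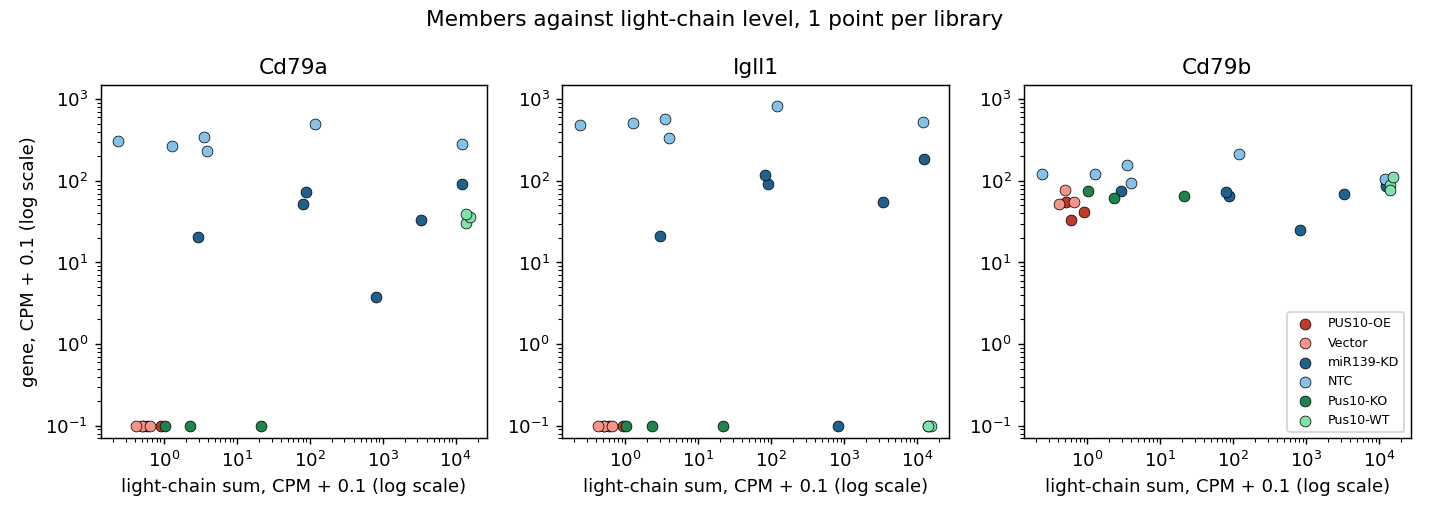
Level of Cd79a, Igll1 and Cd79b against the summed light-chain level, both as CPM + 0.1 on log axes, with 1 point per library coloured by group. The NTC points keep a high Cd79a and Igll1 from 0.139 to 12090 CPM of light chain, the Pus10-WT points at 14059 to 15509 CPM lack Igll1, and Cd79b is present across the whole axis.

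Genes were ranked by the likeness of their levels to Cd79a over the 24 libraries, as a description without a p. The measure was Pearson's correlation of log2(CPM + 1) after each group's mean was subtracted. Only the 9539 genes with a mean log2(CPM + 1) of at least 3 over the 24 libraries were ranked. Genes with a lower mean, such as those low or absent in most groups, could not enter. The 24 points share a library and its depth for both genes of a pair. Cd79a was at 0 in all PUS10-OE, Vector and Pus10-KO libraries, so its deviations there were 0. In Pus10-WT it ranged only from 30.6 to 39.1 CPM, so the values rest mainly on the miR139-KD and NTC libraries. In miR139-KD replicate 2 Cd79a was 3.68 CPM and Pax5, Ebf1, Vpreb3 and Igll1 were at 0. How far that library sets the values was not tested. Outside the members and the immunoglobulins the 5 highest were Csrp2 (0.843), a LIM-domain protein gene, Dntt (0.809), Cacfd1 (0.791), 1110012L19Rik (0.788) and Zfp710 (0.780). Dntt, like Igll1, was at 0 in Pus10-KO and Pus10-WT libraries, stood at 5.12 to 143 CPM in miR139-KD and reached 375 to 822 CPM in NTC HSCs. Among the members the same measure was 0.974 for Igll1, 0.947 for Ebf1, 0.876 for Vpreb3, 0.868 for Vpreb1, 0.848 for Pax5, 0.827 for Blnk, 0.760 for Cd79b and 0.561 for Ms4a1.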

How the data were processed

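Libraries were made by Smart-seq2 from HSCs sorted into lysis buffer, amplified as cDNA and cut with Tn5, per the labels' protocols. This method leaves reads without strand. The deposited values are raw whole-number counts of reads per gene for 55487 Ensembl identifiers and 5 summary entries, which stayed out of library sizes and tests (no feature 3.70% to 12.0%, ambiguous 6.53% to 20.1%). Per the submitters' processing notes, the tools were HISAT2 2.1.0, HTSeq 0.11.2 and DESeq2, and the build was mm10; the sources used here give no annotation release. Symbols and positions came from GENCODE M21 (GRCm38), which matched 55394 identifiers.

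Every fit took the 2 groups of 1 experiment, over all genes passing filterByExpr, with the edgeR 4.0.16 quasi-likelihood test (R 4.3.3, TMM, robust), 2-sided, with Benjamini-Hochberg adjustment over all genes and calls at an adjusted p under 0.05. Standard errors come from the fold change and the F statistic, and 95% intervals use the normal quantile. Light chain is the sum of 178 kappa and lambda constant, variable and joining genes, compared by an exact permutation test. Alternatives were DESeq2 1.42.0, limma-voom (limma 3.58.1) with quality weights, RLE or library-size scaling, no filter or 10 CPM, a replicate block, all 6 groups in 1 fit, light-chain terms and each library left out. The fits and the permutation test were checked on simulated data.

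All 9 members are named throughout. From the other gene lists up to 3 genes with the lowest p per comparison were eligible to be named, and 5 genes by likeness to Cd79a. The members and lists were chosen with earlier results of these data known. Figures were drawn with matplotlib 3.10.9.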

Additional observations from a re-analysis of the deposited data

Results flagged for a closer look

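Dixon's test was run on 20 sets of CPM values, each a member or the light-chain sum in a group of 6 libraries. In 3 sets it marked a library as far from the others. Chance does so in about 1 of 20 sets only where values are normally distributed and the sets independent. The light-chain sums ran from 0.139 to 12349 CPM, so that rate need not hold here. Cd79b in miR139-KD replicate 2 was 24.8 CPM, and the nearest of the other 5 libraries was 65.3 CPM. The light-chain sum in miR139-KD replicate 5 was 12349 CPM, with 3363 CPM the nearest. The light-chain sum in NTC replicate 5 was 12090 CPM, with 119 CPM the nearest.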

How the results depend on the processing

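For the 8 members other than Ms4a1, all 176 log2 fold changes of miR139-KD against NTC under 22 alternative settings were negative. There 4 members were called, against 2 with the replicate block, 2 with the light-chain covariate and 2 to 8 with each replicate left out. Ms4a1 (0.74) ranged from -0.31 without miR139-KD replicate 3 to 1.54 without NTC replicate 5 with a replicate left out, and was 1.84 with the replicate block and 2.81 with limma-voom. Cd79a lost its call without the filter (adjusted p = 0.0532). For Pus10-KO against Pus10-WT, where 1 member was called, DESeq2 called 2, limma-voom 0, the replicate block 0 and the light-chain covariate 0, and leaving out each replicate gave 0 to 1. In PUS10-OE against Vector the count was 0 under all 15 alternatives run. Over all genes, miR139-KD had 361 calls, against 795 with DESeq2, 792 with all 6 groups in 1 fit, 188 with the replicate block, 200 with the light-chain covariate, 34 without libraries at 100 CPM or more of light chain and 196 to 340 with a replicate left out; Pus10-KO had 9, against 152 with DESeq2, 15 with all 6 groups, 14 at the 10 CPM filter, 3 with limma-voom, 2 with the block and 0 to 10 with a replicate left out; PUS10-OE had 0, against 177 with DESeq2, 12 at the 10 CPM filter and 5 with all 6 groups.

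Replicate numbers were not shown to pair libraries: same-numbered deviations correlated between -0.0196 and 0.0197, and 1 library pair per comparison matched its own number best. The light-chain difference of miR139-KD and NTC was 3.93 with the replicate block (exact permutation p = 0.0312), and 2.87 to 5.77 with a replicate left out (5.77 without NTC replicate 5, exact permutation p = 0.0433). With any other replicate left out, the exact permutation p was 0.0866 to 0.32. Where light chain under 5 CPM counted as absent, 13 libraries lacked it in place of 8, with 8 members seen in either case. The libraries added were NTC replicates 1, 3 and 4 and miR139-KD replicate 1, with 8 members seen in each, and Pus10-KO replicate 2, with 2. Igkc alone gave no value for PUS10-OE, where all 6 libraries were at 0. Leaving out libraries at 100 CPM or more of light chain was possible only for miR139-KD: all 3 Pus10-WT libraries reached that level, and no PUS10-OE or Vector library did. The causes of these changes were not tested.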

Other observations

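HSC markers moved opposite to the B-lineage genes in miR139-KD HSCs: 3 of 14 tested rose and 0 fell, with a median log2 fold change of 0.645. Gata2, a stem cell transcription factor, averaged 289 ± 68.3 CPM in miR139-KD and 123 ± 30.4 CPM in NTC HSCs (SD, n = 6 each, log2 fold change 1.23, edgeR adjusted p = 0.00226). Slamf1 (CD150), a surface marker of long-term HSCs, averaged 28.9 ± 10.4 CPM in miR139-KD and 11.1 ± 3.90 CPM in NTC HSCs (log2 fold change 1.36, edgeR adjusted p = 0.0325). Ctnnal1 (alpha-catulin) rose with a log2 fold change of 1.99 (edgeR adjusted p = 0.0218). The summed level of the 14 HSC markers was 1219 to 1402 CPM in miR139-KD libraries and 695 to 1153 CPM in NTC libraries.

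Of 12 tested granulocyte and monocyte markers 1 fell in miR139-KD, Csf3r, the G-CSF receptor (35.7 ± 13.8 CPM in miR139-KD and 86.0 ± 30.9 CPM in NTC, SD, n = 6 each, log2 fold change -1.27, edgeR adjusted p = 0.0288). Of 10 tested erythroid markers 0 were called there by edgeR (1 had an unadjusted p under 0.05, DESeq2 and limma-voom called 0). In the libraries labelled Pus10-KO, 0 of 10 erythroid markers were called by edgeR (7 had an unadjusted p under 0.05, DESeq2 called 2 and limma-voom 0). Hba-a1, an alpha-globin gene, averaged 1412 ± 1172 CPM in the libraries labelled Pus10-KO and 60.8 ± 53.4 CPM in Pus10-WT (SD, n = 3 each, edgeR adjusted p = 0.508).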
